A study of Mus musculus with 6 samples.

Results

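The genes described here are the nuclear-encoded subunits of the mitochondrial respiratory chain and ATP synthase. They were taken by symbol, as every gene whose name starts with Nduf followed by a, b, c, s or v and a digit, every Sdha to Sdhd, every Uqcr gene, Cox4 to Cox8 and every Atp5 gene. Of 17854 genes measured, 87 met this rule: 41 named for complex I, 4 for complex II, 8 for complex III, 17 for complex IV and 17 for ATP synthase (complex V). No expression value entered the choice. The name sets the complex, so Ndufa4, which is by now counted as a complex IV subunit, stands with complex I.

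The study asked how cartilage cells formed by injected mesenchymal stromal cells (MSCs) compare with the cells native to the joint. Bulk RNA-seq was made from Tomato+ cells sorted after collagenase digestion of articular cartilage, with 3 libraries per group from male C57BL/6 mice, the study stating 3 mice for each. In the MSC-derived group, mice with knee osteoarthritis induced by anterior cruciate ligament transection received an intra-articular injection of Prrx1-lineage MSCs from inguinal white adipose tissue, and Tomato+ cells were recovered from the repaired cartilage. In the endogenous group, Tomato+ articular cells came from Prrx1-Cre; R26tdTomato mice matched for age and sex, with no injection and no surgery stated. Both groups carry the Tomato label through Cre driven by Prrx1, a gene of the early limb mesenchyme that also marks bone, fat and dermal stroma, so the label alone does not define chondrocytes. Cell source, host and joint injury all differ between the groups, and their shares in any difference cannot be told apart.

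The respiratory chain passes electrons from NADH (complex I) and succinate (complex II) through ubiquinone to complex III, then through cytochrome c to oxygen at complex IV, and ATP synthase uses the proton gradient that complexes I, III and IV build. Most subunits are encoded in the nucleus, while a catalytic core is encoded in mitochondrial DNA. Articular cartilage has no blood vessels, and its chondrocytes are known for living at low oxygen and drawing much of their ATP from glycolysis. Several subunits come in tissue or oxygen-dependent forms, among them Cox4i2 and Ndufa4l2, which are known to be induced at low oxygen in other cells. The mitochondrially encoded subunits were not analysed here.

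Libraries held 22060628 to 24881796 estimated counts. Endogenous replicate 1 stood apart: 3459 genes were at 0 in it, against 1338 and 1395 in the other endogenous libraries and 1932 to 1948 in the MSC-derived ones. Its counts differed from those of the other endogenous libraries by a chi-square per gene of 55.5 and 58.9, against 5.44 between those 2 and 3.89 to 4.3 among MSC-derived libraries. Marker RNA went against the chondrocyte label in the MSC-derived libraries: all 10 chondrocyte markers were lower there (summed 2410 to 2486 TPM, a length-corrected share of transcripts, against 26431 to 29668). Col2a1 was at 121 against 12968 TPM. Prg4 was lowered least (log2 fold change −0.51) and made most of the MSC-derived sum, at 2000 against 3985 TPM. By immunostaining, the paper found Col2α1 protein in most Tomato+ cells of the articular surface, a measure of protein in tissue sections. From this same RNA-seq, the paper also reported that the MSC-derived cells expressed chondrocyte-specific genes, shown as FPKM. All 8 leukocyte markers, all 8 macrophage, all 8 neutrophil and all 8 erythroid markers were higher, and the neutrophil list alone summed to 139485 to 148362 TPM against 7134 to 10413. All 8 osteoblast markers were lower (569 to 588 against 53319 to 68803 TPM), so the endogenous libraries also held much osteoblast RNA. The macrophage markers summed to 13761 to 14090 against 58.5 to 74.9 TPM, the leukocyte markers to 12800 to 13395 against 432 to 633 and the erythroid markers to 39052 to 40606 against 9412 to 12227. No marker of these lists was at 0 throughout a group. These marker levels move with the group in every result below, and their part in those results was not tested. In bulk RNA, fewer cells of a type and less RNA per cell cannot be told apart.

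Most respiratory chain genes were higher in MSC-derived cells. Of 83 members with enough counts to test, 73 rose and 2 fell at an adjusted p of 0.05 (edgeR's quasi-likelihood test, Benjamini-Hochberg adjustment over 14289 genes), and 8 did not pass. The rise thus covered 88.0% of tested members, while 31.3% of all genes tested were called higher and 30.3% lower. The members' median log2 fold change was 0.81, with quartiles of 0.54 and 1.01, against 0.05 for all genes. For 80 of the 83 (96.4%) no library of one group lay within the range of the other, against a background of 72.4% of genes. Changes were modest in size: 22 of the 73 rose at least 2-fold, 39 by 0.5 to 1 on the log2 scale and 12 by less. Together the members took 1.06%, 1.08% and 1.09% of counts in MSC-derived replicates 1 to 3, and 0.534%, 0.666% and 0.659% in the endogenous ones. Without endogenous replicate 1, 76 members rose and 2 fell, with a median of 0.58. Over all 14728 genes that fit called 5563 higher and 5686 lower, with a median of 0.0.

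The breadth of that rise depended on how transcript length and scale were treated. With limma on log2(TPM + 1), 41 members rose and 3 fell, Ndufv1 being the third, and the members' median was 0.38 while that of all genes was −0.28 and the split over all genes was 3124 higher and 5962 lower. When each library's trend with transcript length was removed, an alternative added after the data were seen, 29 members rose and 16 fell with a median of 0.08. Over all 14289 genes that fit called 4403 higher and 4473 lower. Without endogenous replicate 1 as well, 35 members rose and 27 fell with a median of 0.06, beside 5643 higher and 5655 lower of 14728 genes. Of the 83 members tested, 23 rose under every one of 19 alternatives, the TPM and length-trend fits included, at a threshold of 0.05. They were Atp5g3, Atp5h, Atp5pb, Cox4i1, Cox5a, Cox5b, Cox6b1, Cox7b, Ndufa3, Ndufa4, Ndufa9, Ndufa10, Ndufb7, Ndufb8, Ndufc2, Ndufs8, Ndufv2, Sdha, Sdhb, Sdhc, Sdhd, Uqcrc1 and Uqcrfs1. Cox4i2 and Ndufa4l2 were lower in all 19. How many of all genes tested kept a call in all 19 was not counted, so these counts have no background.

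**Figure D1:**
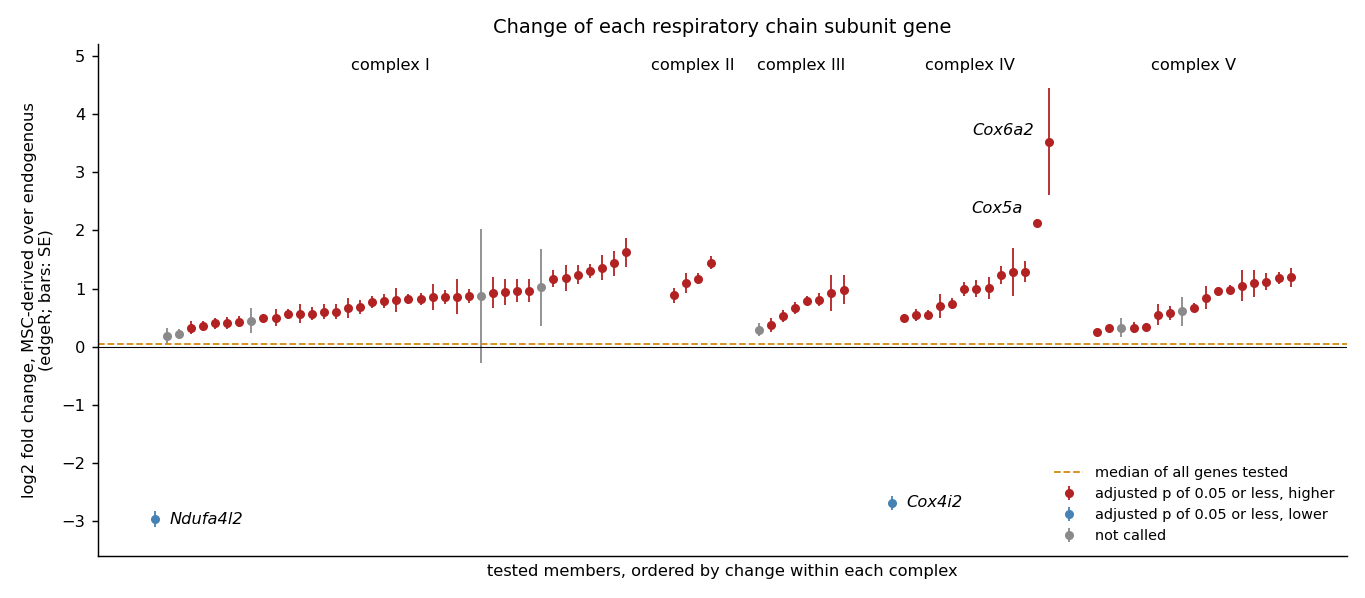
Log2 fold change (y axis, MSC-derived over endogenous, bars the standard error) of each of the 83 tested members, ordered by change within complexes I to V, with the median of all genes as a dashed line. Nearly all points lie above 0, Cox5a and Cox6a2 stand highest, and Cox4i2 and Ndufa4l2 lie alone near −3.

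Complex I takes electrons from NADH. Of its 40 tested members 34 rose and 1, Ndufa4l2, fell, and their median change was 0.79 on the log2 scale. The largest increases were in Ndufa3, a small accessory subunit of the membrane arm, and Ndufs8, which binds iron-sulfur clusters in the electron path. Ndufa3 held 1413, 1422 and 1459 estimated counts in MSC-derived replicates 1 to 3 and 271, 530 and 536 in endogenous ones (log2 fold change 1.62, SE 0.25, edgeR adjusted p = 0.000882). Ndufs8 held 3250, 2988 and 2767 against 674, 1289 and 1207 (1.43, SE 0.22, edgeR adjusted p = 0.000956). Every MSC-derived library was above every endogenous one for both genes, and endogenous replicate 1 was the lowest. Without that library the log2 fold changes were 1.31 and 1.15.

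The core subunits of complex I changed by unequal amounts. Ndufs7, at the end of the iron-sulfur chain next to the ubiquinone site, held 2568, 2584 and 2298 counts against 820, 1326 and 1499 (log2 fold change 0.96, edgeR adjusted p = 0.00383), a call lost with the length trend removed (0.30, edgeR adjusted p = 0.0673). Ndufs1, the largest subunit, had a log2 fold change of 0.43 (edgeR adjusted p = 0.00492), and on the TPM scale it lay at −0.02 and did not pass. With the length trend removed Ndufs1 kept its call, at 0.4 (edgeR adjusted p = 0.00466). Ndufv1, which binds NADH and FMN, held 2274, 2283 and 1903 counts against 1647, 1787 and 1822 and did not pass (log2 fold change 0.22, edgeR adjusted p = 0.052), whereas its partner Ndufv2 rose by 0.82 (edgeR adjusted p = 0.000508). Ndufb2 and Ndufa11 did not pass either. Ndufb4b and Ndufb4c carry fractional counts shared with Ndufb4, and these genes are uncertain for that reason.

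The pair of Ndufa4 and Ndufa4l2 went opposite ways. Ndufa4, a subunit of cytochrome c oxidase despite its name, held 3282, 3221 and 2884 counts in MSC-derived libraries and 1015, 1460 and 1504 in endogenous ones (log2 fold change 1.17, SE 0.14, edgeR adjusted p = 0.000281). Ndufa4l2, its paralog, known as a target of hypoxia-inducible factor that lowers complex I activity, held 902, 872 and 761 counts against 4979, 6806 and 6978 (−2.96, SE 0.14, edgeR adjusted p = 1.38e-06). As a share of the pair's summed TPM, Ndufa4l2 made 9.77% ± 0.152 (SD, n = 3) of it in MSC-derived cells and 65.7% ± 0.977 (SD, n = 3) in endogenous cells. The more abundant gene of the pair was thus Ndufa4 in all MSC-derived libraries and Ndufa4l2 in all endogenous ones. The exact two-sided permutation test gave p = 0.1, which is the smallest p that 3 against 3 libraries allow (adjusted p = 0.2 over the 10 shares compared).

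Complex II, succinate dehydrogenase, links the respiratory chain to the TCA cycle and is the only complex with no mitochondrially encoded subunit. All 4 of its genes rose, at a median of 1.13 on the log2 scale, and all 4 rose under each alternative run, with medians of 0.79 and 0.77 when the length trend was removed with all libraries and without endogenous replicate 1. Sdha, the flavoprotein that oxidizes succinate, held 6259, 6403 and 5614 counts against 2493, 3434 and 3501 (log2 fold change 0.88, edgeR adjusted p = 0.000651). Sdhb, the iron-sulfur subunit, held 3642, 3305 and 3094 against 1504, 1254 and 1487 (1.17, SE 0.09, edgeR adjusted p = 2.09e-05). Both genes were higher in every MSC-derived library, and so were the membrane anchors Sdhc and Sdhd, which hold the ubiquinone site. Sdhc held 1965, 1856 and 1758 counts against 602, 725 and 628 (1.44, SE 0.11, edgeR adjusted p = 1.72e-05). Sdhd held 2992, 2937 and 2899 against 956, 1390 and 1595 (1.10, SE 0.17, edgeR adjusted p = 0.000881). Summed over the 4 genes, the level was 555 to 562 TPM in MSC-derived cells and 342 to 354 TPM in endogenous cells, the narrowest spread among the endogenous libraries of all 5 complexes. Sdhb had the highest level per length, at 198 ± 6.93 against 120 ± 18.9 TPM (SD, n = 3).

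Complex III hands electrons from ubiquinol to cytochrome c. Here 7 of 8 genes rose, with a median of 0.73. Uqcrfs1, the Rieske iron-sulfur protein, held 3483, 3228 and 3137 counts against 1854, 1664 and 1885 (log2 fold change 0.79, SE 0.08, edgeR adjusted p = 6.72e-05). Uqcrc1, a core protein, had a log2 fold change of 0.66 (edgeR adjusted p = 0.000712), and its partner Uqcrc2 one of 0.29 that did not pass (edgeR adjusted p = 0.0555). The small subunits Uqcr10 and Uqcr11 had larger changes but wider spread. Uqcr11 held 2262, 2062 and 2216 counts against 552, 1400 and 1358 (0.92, SE 0.31, edgeR adjusted p = 0.0361). It was far lower in endogenous replicate 1 than in the other endogenous libraries, and without that library its log2 fold change was 0.55. The call for Uqcr11 was lost when any 1 MSC-derived library was left out (edgeR adjusted p = 0.0767 to 0.103). Uqcr10 had the highest level of the complex, 532 ± 14 against 358 ± 111 TPM (log2 fold change 0.98, edgeR adjusted p = 0.0106). With the length trend removed Uqcr10 and Uqcr11 lay at −0.02 and −0.07 and did not pass.

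Complex IV, cytochrome c oxidase, reduces oxygen to water and is the complex with most tissue isoforms. Of its 14 tested genes 13 rose and 1, Cox4i2, fell, with a median of 0.99. Cox5a, a matrix-facing subunit found in all tissues, had the best-resolved increase: 7664, 7193 and 7020 counts against 1516, 1645 and 1603 (log2 fold change 2.13, SE 0.07, edgeR adjusted p = 3.19e-07). Its level was 759 ± 11 against 235 ± 12.9 TPM, with no overlap and with endogenous replicate 1 close to the others. Cox5b, which partners Cox5a in the same part of the enzyme, had a smaller log2 fold change of 1.23 (edgeR adjusted p = 0.000416). The most abundant subunit gene per length was Cox8a, at 1566 ± 60.6 against 1047 ± 155 TPM (log2 fold change 1.00, edgeR adjusted p = 0.000653). With the length trend removed Cox8a lay at 0.12 and did not pass (edgeR adjusted p = 0.206). Cox7a2l rose by 0.49 on the log2 scale (edgeR adjusted p = 0.000725) but lay at −0.03 with the length trend removed.

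The isoforms of subunit 4 changed in opposite directions. Cox4i1, the form used in most tissues, held 13823, 13050 and 12381 counts against 5040, 6698 and 7112 (log2 fold change 0.99, SE 0.12, edgeR adjusted p = 0.000227). Cox4i2, the form known from lung and induced by low oxygen, held 207, 197 and 190 counts against 1062, 1231 and 1329 (−2.68, SE 0.12, edgeR adjusted p = 1.29e-06). Cox4i2 made 1.52%, 1.53% and 1.55% of the pair's TPM in MSC-derived cells and 17.8%, 15.9% and 16.1% in endogenous cells (exact two-sided permutation p = 0.1, the smallest possible). In both groups Cox4i1 remained the main form. Cox4i2 was at 19.3 TPM in MSC-derived and 167 TPM in endogenous cells.

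**Figure D2:**
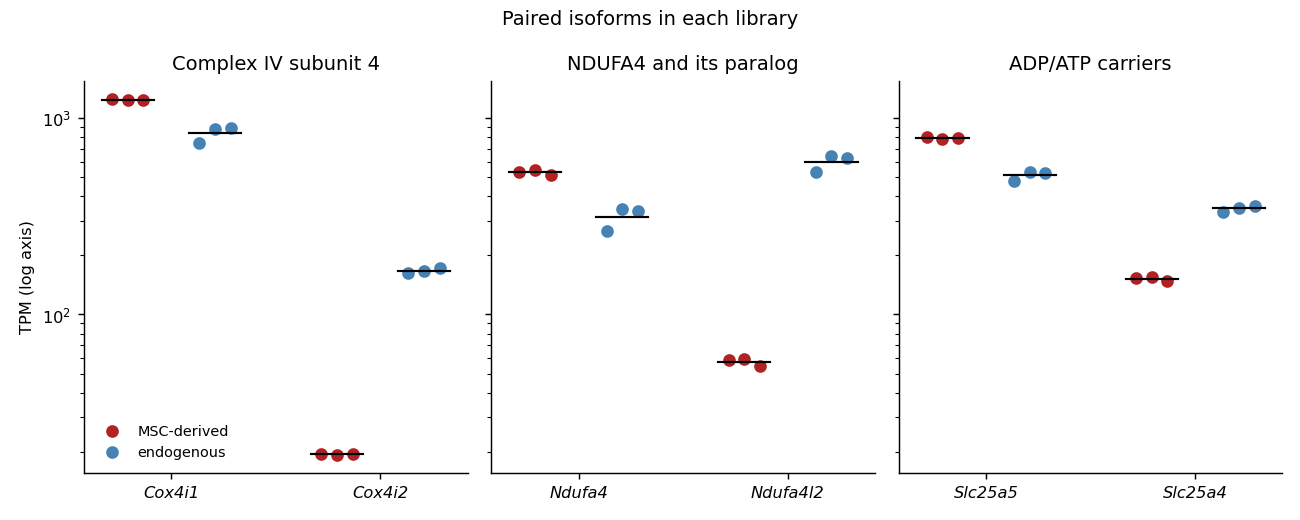
TPM of 3 isoform pairs in each library (log axis, dots are libraries and bars group means, n = 3 per group). Cox4i1, Ndufa4 and Slc25a5 are higher in every MSC-derived library, and Cox4i2, Ndufa4l2 and Slc25a4 are lower in every one.

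The muscle forms of complex IV were scarce in both groups. Cox6a2, the form of heart and skeletal muscle, held 69, 47 and 57 counts in MSC-derived libraries and 0, 9 and 5 in endogenous ones (log2 fold change 3.52, SE 0.92, edgeR adjusted p = 0.0121, and 2.9 without endogenous replicate 1). The call was lost without MSC-derived replicate 1 or 3 (edgeR adjusted p = 0.0584 and 0.0548). Its level of 6.43 ± 1.10 against 0.713 ± 0.700 TPM compares with 1232 ± 15.5 and 1007 ± 241 TPM for Cox6a1, the form of other tissues, so Cox6a2 made 0.519% of the pair in MSC-derived cells and 0.0618% in endogenous cells (exact permutation p = 0.1). Of 7 striated muscle markers tested none rose and 2 fell, whereas without endogenous replicate 1 2 rose, Ckm by 2.07 (edgeR adjusted p = 0.00993) and Mylpf by 1.01 (edgeR adjusted p = 0.0277), and 3 fell. The whole list of 14 summed to 14.7 to 17.7 against 55.4 to 65.0 TPM, with Myh1 and Myh2 at 0 in MSC-derived libraries and Myh4 at 0 in endogenous ones. Tnni2 alone made most of the endogenous sum, at a mean of 6.38 TPM in MSC-derived and 47.9 TPM in endogenous libraries. Cox7a1, the muscle form of subunit 7a, was too low to test with 9, 12 and 6 counts against 3, 7 and 4, next to 344 ± 18.6 and 319 ± 13.5 TPM for Cox7a2.

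Cox8b, the muscle form of subunit 8, held 6, 0 and 3 counts against 1, 0 and 2, and Cox8c, a testis form, held none in MSC-derived libraries and 0, 2 and 1 in endogenous ones. A count of 0 still allows up to 3 counts in a library, which is 0.122 to 0.136 CPM (counts scaled to the library total) in the MSC-derived libraries. Brown adipocytes also use Cox8b and Cox7a1. None of the 4 brown adipocyte markers tested was higher in MSC-derived cells, all 4 were lower, and the list of 7 summed to 1.89 to 2.79 against 269 to 292 TPM, with Cidea at 0 in MSC-derived and Ucp1 at 0 in endogenous libraries. Adipoq, a gene of all adipocytes, made 266 TPM of that endogenous sum. Cox6b2, the testis form of subunit 6b, held 118, 124 and 105 counts against 23, 60 and 53 (log2 fold change 1.28, SE 0.41, edgeR adjusted p = 0.0298). That call was lost without any 1 MSC-derived library or endogenous replicate 3, with the replicate block (edgeR adjusted p = 0.0535 to 0.0972 over these) and with the length trend removed (0.40, edgeR adjusted p = 0.349). It was a small share of its pair in both groups, 1.19% ± 0.0671 and 1.2% ± 0.261, with a difference that was within the spread (exact permutation p = 0.9).

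In ATP synthase, complex V, 15 of 17 genes rose and none fell, and the median was 0.67. Atp5b, the catalytic beta subunit, held 15428, 14473 and 13752 counts against 11583, 11730 and 11514 (log2 fold change 0.25, SE 0.06, edgeR adjusted p = 0.00766), and Atp5a1, the alpha subunit, had a log2 fold change of 0.32 (edgeR adjusted p = 0.00229). On the TPM scale they lay at −0.19 and −0.12 and did not pass. Atp5c1, the gamma subunit that forms the rotating shaft, had a log2 fold change of 0.67 (edgeR adjusted p = 0.000189), and it did not pass on the TPM scale (0.21, limma adjusted p = 0.0941) or with the length trend removed (0.17, edgeR adjusted p = 0.169). The delta subunit gene Atp5d did not pass. Atp5mpl and Atp5md, small proteins associated with the membrane sector, had the largest changes of the complex. Atp5mpl held 1862, 1820 and 1712 counts against 635, 788 and 840 (1.18, SE 0.11, edgeR adjusted p = 6.81e-05), and Atp5md had a log2 fold change of 1.19 (edgeR adjusted p = 0.00073). With the length trend removed these lay at 0.08 and 0.03 and did not pass. Atp5l, which helps pair the enzyme into dimers, was the most abundant gene of the complex per length, at 994 ± 59.9 against 622 ± 168 TPM. Its log2 fold change of 1.09 (edgeR adjusted p = 0.00445) was 0.19 with the length trend removed and did not pass (edgeR adjusted p = 0.228).

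The rotating c ring is made from 3 genes that encode the same mature protein. Atp5g3 held 3022, 2942 and 2769 counts against 1307, 1478 and 1514 (log2 fold change 0.95, SE 0.08, edgeR adjusted p = 3.67e-05), Atp5g2 rose by 0.34 (edgeR adjusted p = 0.00345) and Atp5g1 did not pass (0.61, edgeR adjusted p = 0.0714). With the length trend removed the direction of Atp5g2 turned, to a call lower at −0.47 (edgeR adjusted p = 0.0129), and at −0.32 without endogenous replicate 1 as well (edgeR adjusted p = 9.58e-06). Atp5g2 was the largest of the 3 shares of TPM in both groups, 46.1% ± 0.977 and 53.9% ± 6.54, while the share of Atp5g3 was 26.1% ± 0.332 in MSC-derived and 19.9% ± 0.852 in endogenous cells (exact permutation p = 0.1 for each, adjusted p = 0.2). For Atp5g1 the shares were 27.1%, 27.8% and 28.4% against 17.9%, 31.4% and 29.3%, and they overlapped (exact permutation p = 1.0).

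Transcript length moved with the change. The members are short, with a median effective length of 502 bases implied by count and FPKM against 2649 for all tested genes. Across the 83 members Spearman's rho between length and log2 fold change was −0.376, and across 13776 genes it was −0.219. These are descriptions across genes of the same 6 libraries, and genes are not independent replicates. Without endogenous replicate 1 the values were −0.236 and −0.185. That library had the lowest endogenous level for 71 of the 83 members and for 6542 of the 13776 genes. Its median difference from the mean of the other endogenous libraries was −0.37 on the log2 scale for members and −0.02 for all genes.

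The members were also set beside other genes in classes of length. Among genes of 250 to 500 bases, 34 members had a median log2 fold change of 0.86 and 94.1% rose, against 0.69 and 58.5% for 270 other genes. Without endogenous replicate 1 the medians of that class were 0.58 and 0.53. Among those of 1000 to 2000 bases, 12 members had a median of 0.71 and 83.3% rose, against 0.22 and 36.6% for 3345 others (0.59 and 0.15 without endogenous replicate 1). The 4 members above 2000 bases had a median of 0.44, against −0.13 for 8994 others. The 7 members up to 250 bases had a median of 1.18 against 0.88 for 33 others, and the 26 members of 500 to 1000 bases one of 0.68 against 0.51 for 1051 others. No test was run on these classes.

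**Figure D3:**
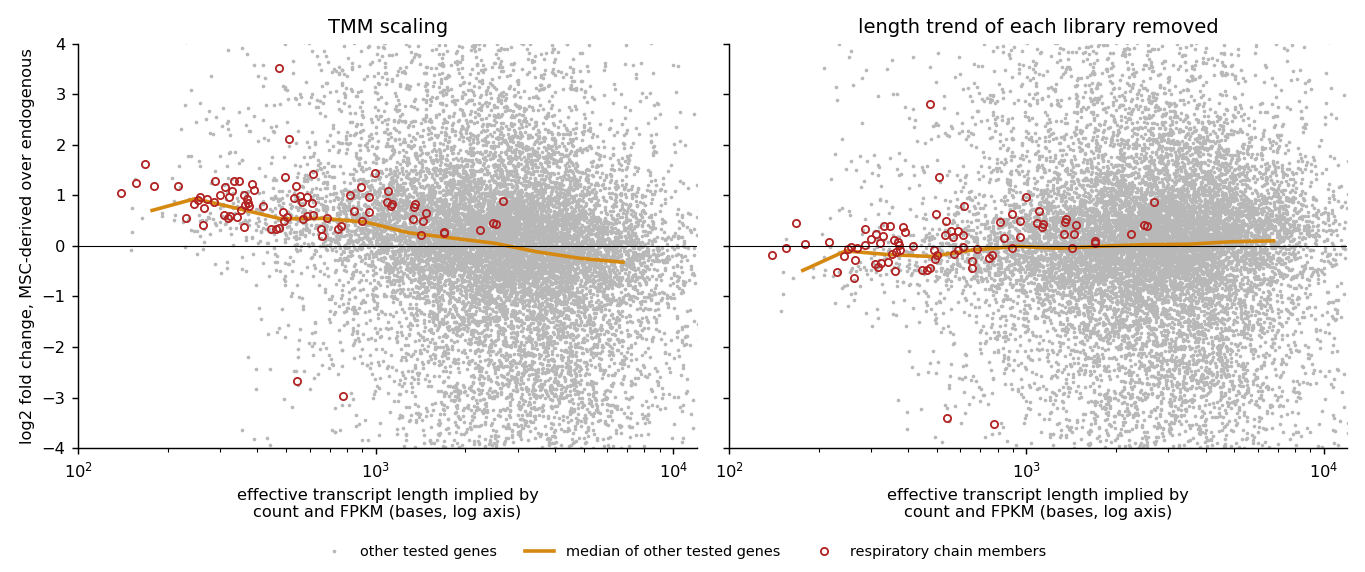
Log2 fold change (y axis, MSC-derived over endogenous) against effective transcript length in bases (log axis) for members (red circles) and other tested genes (grey dots, orange line their median), as fitted on the left and with each library's length trend removed on the right. Points outside −4 to 4 on the y axis or beyond the x axis are not drawn, and most members of short length move from above 0 to around it.

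Promoter sequence was compared because the members are genes of 1 pathway that largely moved together in the main fit. RefSeq promoters, from 250 bases before to 50 after the transcript start on GRCm38.p6, matched 69 of the 87 members; Cox4i2, Ndufa4l2, Cox4i1, Cox6a2 and Sdhc were among the 18 with none. On either strand, GCGCANGCG, the core bound by nuclear respiratory factor 1 (NRF1), was in 20 member promoters (29.0%) against 13.9% of 11314 promoters of tested genes. CCGGAAG, the core of ETS factors such as GABP, was in 17 (24.6%) against 18.3%. AAGATGGCG, a YY1 motif, was in 7 (10.1%) against 3.19%, and CAAGGTCA, bound by estrogen-related receptors, was in 4 (5.80%) against 1.26%. Any of the NRF1, ETS and YY1 motifs was in 36 member promoters (52.2%) and in 31.0% of those of tested genes. In the 61 promoters of members called higher, the shares were near those of all members. They were 31.1% for NRF1, 27.9% for ETS, 11.5% for YY1 and 6.56% for the estrogen-related receptor motif. Of the 23 members that rose under every alternative, 21 had a promoter and 6 held a motif between bases −120 and −1. Of the 12 members with the largest change in their complex, 7 had a promoter and 1 held a motif there. How many promoters of all tested genes hold a motif in that stretch was not counted, so these counts have no background. These 4 stretches, each with its motif in capitals, were picked after seeing which hold one, so that each shows a form of motif beside a gene described above. A match of letters is a description and not a site that a factor was seen to bind.
Sdha, chr13:74350241-74350360, minus strand, NRF1 motifs in capitals: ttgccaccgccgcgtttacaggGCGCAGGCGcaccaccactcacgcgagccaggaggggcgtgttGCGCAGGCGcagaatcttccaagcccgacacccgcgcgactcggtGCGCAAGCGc
Sdhd, chr9:50603850-50603969, minus strand, an NRF1 and then a reversed ETS motif in capitals: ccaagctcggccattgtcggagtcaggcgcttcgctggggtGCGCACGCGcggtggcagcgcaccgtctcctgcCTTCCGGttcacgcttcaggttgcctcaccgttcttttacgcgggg
Cox6b1, chr7:30626115-30626234, minus strand, a reversed ETS motif in capitals: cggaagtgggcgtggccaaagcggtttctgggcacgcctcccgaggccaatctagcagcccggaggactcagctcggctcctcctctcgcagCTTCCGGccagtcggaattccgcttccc
Atp5g3, chr2:73911327-73911446, minus strand, a reversed estrogen-related receptor motif in capitals: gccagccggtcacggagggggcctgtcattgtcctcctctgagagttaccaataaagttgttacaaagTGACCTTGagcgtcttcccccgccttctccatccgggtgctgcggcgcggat

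Assembly factors, the proteins that build the complexes but do not stay in them, were counted as well. Among 51 assembly factors tested 19 rose and 1 fell, at a median of 0.39 on the log2 scale, while 31.3% of all genes tested were called higher. On the TPM scale 11 rose and 8 fell, beside 3124 higher and 5962 lower of all 14289 genes. With the length trend removed 10 rose and 5 fell, beside 4403 and 4473 of all genes. Of the complex IV assembly factors 11 of 21 rose and none fell, at a median of 0.77, and Coa4 had the largest change: 314, 342 and 350 counts against 0, 51 and 52 (3.22, SE 0.90, edgeR adjusted p = 0.0162, and 2.59 without endogenous replicate 1). That call was lost in DESeq2 (adjusted p = 0.053) and without any 1 MSC-derived library (edgeR adjusted p = 0.0504 to 0.0616). For complex I 5 of 15 rose, for complex II 1 of 4 and for complex V 1 of 5, led by Atpaf1, a chaperone of the beta subunit (1.51, edgeR adjusted p = 0.000622). For complex III 1 of 6 rose and 1 fell, the latter being Ttc19 with a log2 fold change of −1.30 (edgeR adjusted p = 0.00586). The difference between subunits and assembly factors was not tested.

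Carriers bring electrons to the chain and exchange its products across the membranes. Of 13 tested 11 rose and 1 fell, on the TPM scale 7 rose and 3 fell, and with the length trend removed 7 rose and 2 fell. Of all 14289 genes tested 31.3% were called higher in the main fit. On the TPM scale 3124 were higher and 5962 lower, and with the length trend removed 4403 and 4473. Ucp2, an inner membrane carrier known to be abundant in immune cells, held 39307, 36063 and 34517 counts against 2150, 2718 and 2800 (3.77, SE 0.11, edgeR adjusted p = 1.54e-07), or 1387 ± 28.8 against 137 ± 7.46 TPM. Ucp3, its relative in muscle, held 342, 290 and 363 counts and none in any endogenous library, at least 103-fold higher against a floor of 3 counts per library. Etfb, part of the flavoprotein that brings electrons from fatty acid oxidation, rose by 2.34 (edgeR adjusted p = 9.38e-06), a gene picked after its value was seen.

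The ADP/ATP carriers showed an opposite pair like that of subunit 4. Slc25a5, the form of dividing and many other cells, held 17708, 16424 and 15892 counts against 6374, 8073 and 8354 (1.06, SE 0.10, edgeR adjusted p = 6.02e-05). Slc25a4, the form that prevails in heart and muscle, held 3503, 3349 and 3039 against 4583, 5451 and 5863 (−0.76, SE 0.09, edgeR adjusted p = 0.000248). Neither pair of groups overlapped, and both directions were kept on the TPM scale, without endogenous replicate 1 and with the length trend removed. Cycs, the cytochrome c that carries electrons from complex III to IV, had a log2 fold change of only 0.31 (edgeR adjusted p = 0.0113) and lay at −0.12 on the TPM scale, and its call was lost without MSC-derived replicate 2 (edgeR adjusted p = 0.0503). With the length trend removed Cycs kept its call, at 0.37 (edgeR adjusted p = 0.00226).

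Regulators of mitochondrial biogenesis were mixed. Of 17 tested 3 rose and 6 fell, with a median of −0.17, beside 31.3% higher and 30.3% lower of all genes tested. Esrra, an estrogen-related receptor that drives respiratory genes, held 1173, 1101 and 1029 counts against 230, 426 and 392 (1.58, SE 0.22, edgeR adjusted p = 0.000535). Ppargc1b, a coactivator of such receptors, held 395, 303 and 371 against 0, 80 and 43 (3.04, SE 0.94, edgeR adjusted p = 0.0245), a call lost in DESeq2 (adjusted p = 0.0848) and without any 1 MSC-derived library or endogenous replicate 3 (edgeR adjusted p = 0.0647 to 0.0817). Ppargc1a, Tfam, Nrf1 and Gabpa did not pass, with log2 fold changes of −0.84, −0.08, 0.36 and −0.07. Among the genes that fell were Myc (−2.36, edgeR adjusted p = 4.4e-07) and Hif1a, the oxygen-regulated factor that acts on Ndufa4l2 in other cells (−1.79, edgeR adjusted p = 2.45e-05). The others were Pprc1 (−1.28, edgeR adjusted p = 8.27e-05), Tfb1m (−1.01, edgeR adjusted p = 0.0215), Polg2 (−0.95, edgeR adjusted p = 0.0156) and Gabpb1 (−0.71, edgeR adjusted p = 0.0191). Hif1a held 2094, 2082 and 1846 counts against 8007, 5702 and 6017.

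Other mitochondrial pathways were counted too, beside 31.3% higher and 30.3% lower of all 14289 genes tested. Over all genes, 3124 were higher and 5962 lower on the TPM scale, and 4403 and 4473 with the length trend removed. Of 18 TCA cycle and pyruvate dehydrogenase genes 9 rose and 1 fell, with a median of 0.25, led by Idh3g, an isocitrate dehydrogenase subunit (1.25, edgeR adjusted p = 0.000757), and with Pdha1 lower (−0.32, edgeR adjusted p = 0.0176), a call lost without any 1 MSC-derived library (edgeR adjusted p = 0.0606 to 0.0844). On the TPM scale 5 rose and 4 fell. Of 78 mitochondrial ribosomal protein genes 48 rose and 1 fell, with a median of 0.56, but 15 rose and 10 fell on the TPM scale, and 16 rose and 6 fell with the length trend removed. Mrpl35 had the largest rise (2.15, edgeR adjusted p = 7.05e-06), and Mrps6 was the one that fell (−1.92, edgeR adjusted p = 4.94e-06).

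**Figure D4:**
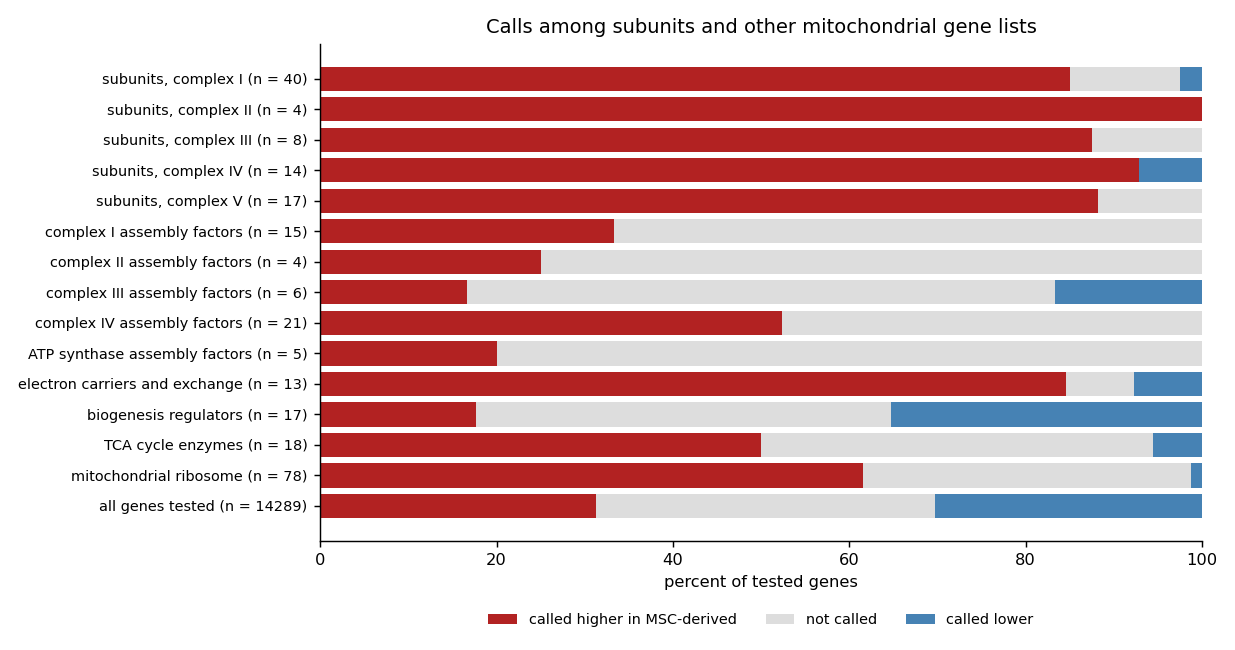
Percent of tested genes (x axis) called higher (red), not called (grey) and called lower (blue) in MSC-derived against endogenous cells, for the subunits of each complex, other mitochondrial lists and all genes tested. Complex II is all red at 4 of 4, the subunit bars exceed the assembly factor bars, and the biogenesis regulators are the list with the largest blue share.

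**Figure D5:**
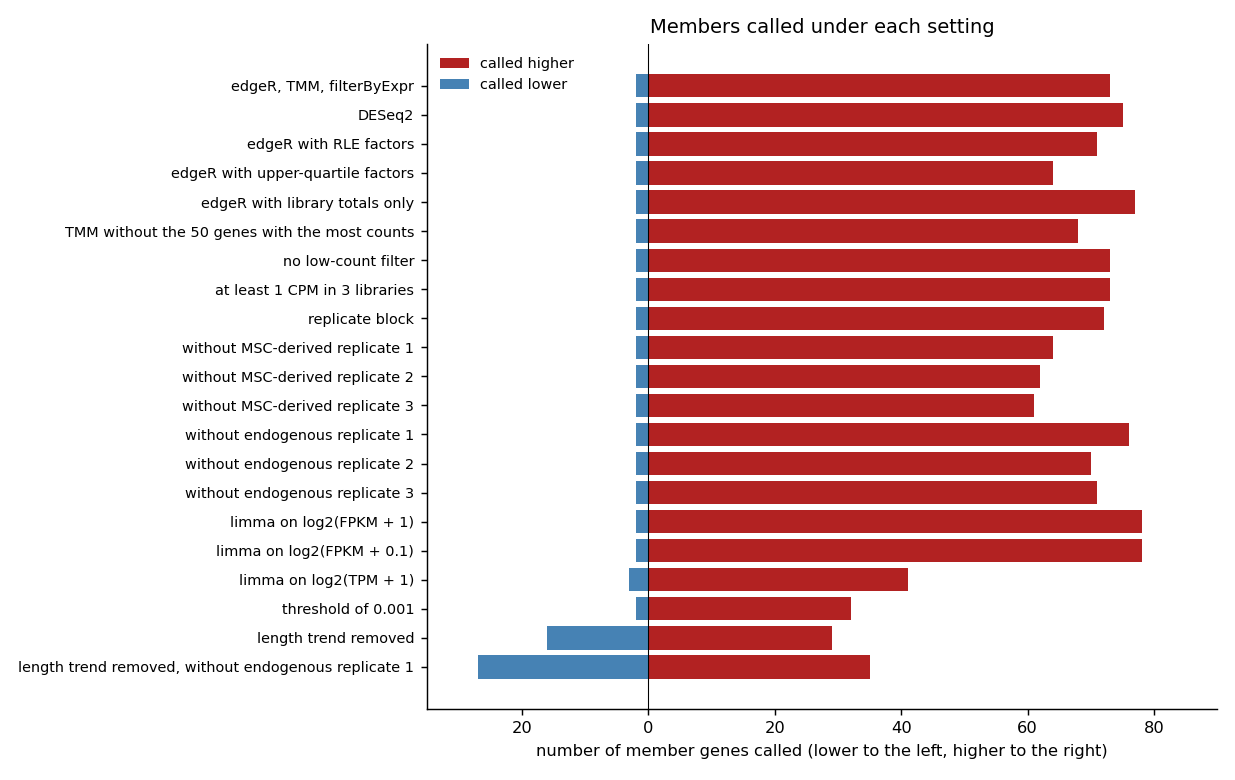
Number of members called higher (red, to the right) and lower (blue, to the left) under the main fit in the top row and each alternative. The count of 73 higher falls to 41 on TPM and to 29 with the length trend removed, where 16 are lower.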

How the data were processed

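Bulk RNA-seq of 3 MSC-derived and 3 endogenous samples was analysed, with groups taken from the treatment labels. Reads were cleaned by the authors with SOAPnuke, mapped with HISAT2 to the genome and with Bowtie2 to the gene set, and quantified by RSEM. The submitters' processing notes name Bowtie2 2.2.5, RSEM 1.2.12 and build mm9; the study's text gives other versions and no build, so no coordinates were taken from the expression table, and promoter coordinates are those of GRCm38. The deposited table holds RSEM estimated counts, FPKM and TPM per library, and a normalized read count that the authors scaled by means not stated, a signal that was not used in any result. The 8 columns of group averages were not used.

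Estimated counts were rounded to whole numbers (20.6% of values changed) and genes kept by filterByExpr were fitted with edgeR 4.0.16 (R 4.3.3; TMM, quasi-likelihood test without covariates, Benjamini-Hochberg adjustment over all genes, threshold 0.05). Alternatives used DESeq2 1.42.0, limma 3.58.1 on log2(FPKM + 1), log2(FPKM + 0.1) and log2(TPM + 1), other scalings and filters, each library left out, a threshold of 0.001 and, added after the data were seen, removal of each library's lowess trend on log2 length (span 0.3). On log2(value + pseudocount) scales the changes of low genes are understated. Isoform shares were compared by exact permutation (scipy 1.17.1), for which 3 against 3 cannot go below p = 0.1. Libraries held 22060628 to 24881796 counts; floors of 3 counts cover counting error only. The labels do not name separate mice, and whether each library is 1 mouse or a pool is not stated, so p-values measure the spread between these libraries. The fit was checked on simulated counts; its first limit on recovery was narrowly missed and was replaced by limits on sign, false calls and bias.

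Named genes were all isoform pairs, the largest called changes and the highest level in each complex, landmark subunits, and the largest changes of each list. Etfb, Esrra, Hif1a, Myc, Nrf1, Gabpa, Pprc1, Tfb1m, Polg2, Gabpb1, Prg4, Tnni2 and other members named for not passing were added by their values or role. Members, lists and rules were chosen with earlier results of these data known. A landmark subunit that the rule names is counted among the members but not reported here by its own values.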

Additional observations from a re-analysis of the deposited data

How the results depend on the processing

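Members called higher numbered 61 to 77 in the count-based fits at a threshold of 0.05 that kept the length trend, 78 with limma on FPKM, 41 on log2(TPM + 1), 32 at a threshold of 0.001 (where 2134 of all genes were higher and 2380 lower), and 29 and 35 with the length trend removed, with all libraries and without endogenous replicate 1. Members called lower were 2, or 3 on TPM, and 16 and 27 with the trend removed. The median of all genes moved from 0.05 to −0.28 on TPM, 0.16 with library totals, and 0.13 and 0.19 on FPKM with pseudocounts of 1 and 0.1, and the members' median exceeded it by 0.58 to 0.85 in every fit other than those that removed the length trend (0.07 and 0.05).

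With each library left out in turn the members' median ran from 0.58 to 0.85, complex I from 0.51 to 0.84, complex III from 0.53 to 0.75 and complex V from 0.58 to 0.80, the lowest of each without endogenous replicate 1. Complex II ran from 1.02 to 1.21 and complex IV from 0.78 to 1.06, the largest and second largest median each time. The order of complexes I, III and V depended on the library left out. On TPM the medians were 0.38 for all members and 0.37, 0.70, 0.29, 0.58 and 0.25 for complexes I to V. With the length trend removed they were 0.08 for all members and 0.04, 0.79, 0.04, 0.20 and 0.03 for complexes I to V, and without endogenous replicate 1 as well 0.06 for all and −0.02, 0.77, 0.17, 0.12 and −0.01. Complex II was at 1.27 on log2(FPKM + 0.1), and complex III at 0.84 with library totals and on log2(FPKM + 1) and at 0.85 on log2(FPKM + 0.1). From counts in place of TPM, the difference in share was 0.613 percentage points for Cox6a2 and −61.3 for Ndufa4l2.

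Among single genes, log2 fold changes turned negative on TPM for Atp5g2 (−0.09), Ndufs1 (−0.02), Ndufv1 (−0.22), Atp5a1 (−0.12), Atp5b (−0.19), Sdhaf2 (−0.05) and Cycs (−0.12), among others. With the length trend removed they did so for Atp5g2 (−0.47), Cox6a1 (−0.17), Cox7a2 (−0.15), Uqcr11 (−0.07), Uqcr10 (−0.02), Cox7a2l (−0.03) and Ndufb2 (−0.43), among others. Without endogenous replicate 1 as well, those below 0 included Atp5g1 (−0.22), Atp5g2 (−0.32), Cox6a1 (−0.30), Cox7a2 (−0.14), Uqcr11 (−0.31), Uqcr10 (−0.18), Atp5md (−0.01), Ndufb2 (−0.45) and Atp5d (−0.34). Members not named above were also called lower with the length trend removed and all libraries kept. Examples were Ndufc1 (−0.63, edgeR adjusted p = 0.00324) and Atp5e (−0.51, edgeR adjusted p = 0.00133). The cause was not tested. Over all alternatives, 26 named genes lost their call with direction kept in at least 1 setting, and 6 gained one with direction kept. In at least 1 setting 16 changed direction, some of them with a call in the new direction, as for Ndufb2 and Atp5g2.

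Replicate numbers were not known to pair mice, and deviations of same-numbered libraries correlated at 0.0129, 0.00221 and 0.0178. With the replicate number as a block, 72 members rose and 2 fell, with a median of 0.83, beside 4103 higher and 3920 lower of all genes. Replicates 1 and 3 correlated best with their own number and replicate 2 did not, a hint from the data only. Depth limits the muscle and testis isoforms, Cox6a2 included, which rest on few counts.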
